A study of Mus musculus with 10 samples.

Results

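The heat shock chaperone genes followed were Hspa8, Hspa1a, Hspa1b, Hsph1, Dnajb1, Dnaja1, Hsp90aa1, Hsp90ab1, Hspd1 and Hspe1, 10 genes taken by name. Every probe set that names one of them alone in the array annotation was used, which gave 15 of the 21789 single-gene probe sets and covered 8 of the 10 genes, out of 19938 genes with such a probe set. Hspa1b was named only together with Hspa1a, on 1 probe set, and Hsp90ab1 was named on none and has no value here. RNA was measured on 10 Affymetrix arrays of bone marrow neutrophils from C57BL/6 mice, labelled as female and 10 weeks old. There were 2 arrays of Lcn2 knockout cells and 2 of wild type cells after fMLP, a formylated peptide that attracts and activates neutrophils, given at 10 micromolar in an incubation of 20 minutes at 37 degrees C, against 3 arrays of unstimulated knockout cells and 3 of unstimulated wild type cells. Lcn2 encodes lipocalin 2, an iron-carrier-binding granule protein. All cells came from flushed tibia and femur, passed through a red cell lysis of 5 minutes at room temperature, and were taken from between 62% and 81% Percoll. The labels do not say how the knockout was made, whether replicates were separate mice, or whether unstimulated cells also spent time at 37 degrees C, so p-values measure only the spread between these arrays. The question put to the heat shock genes was whether the warm incubation left a temperature or handling response on the fMLP arrays.

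Heat shock proteins bind unfolded chains and help them fold or refold. When proteins unfold in heat or other stress, heat shock factor 1 forms trimers, binds repeated nGAAn units in promoters and induces Hspa1a, Hspa1b, Hsph1, Dnajb1, Hsp90aa1 and others within minutes, while Hspa8 and Hsp90ab1 are made at a high basal level. HSP70 proteins work with J-domain partners (Dnajb1, Dnaja1) and with HSP110 exchange factors (Hsph1), HSP90 finishes the folding of kinases and receptors, and the mitochondrial ring Hspd1 is closed by its lid Hspe1. Isolation of neutrophils itself moves cells between cold buffer, room temperature and warm medium.

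The promoters are shown because the inducible members are known by these elements. Windows from RefSeq (build GRCm38.p6) were held for 7 of the 10 genes, in 12 windows, and the 250 bases before each start were searched for GAANNTTC and TTCNNGAA, the 2 ways in which a pair of facing nGAAn units can lie. Each motif is its own reverse complement, so a match lies on both strands, and neighbouring matches may share a unit. Hspa1a, Hspa1b, Hsph1, Dnaja1, Hspd1 and Hspe1 held a match and Dnajb1 held none in its 2 windows. Over all genes with a window, 14.5% held a match, and 0.466% of all windows held 3 adjoining units, as the Hspe1 window and one of the Hspd1 windows did. A match is a run of letters, not a measured binding site. Capitals mark the matched units in these stretches of 30 bases.
Hspe1, chr1:55088048-55088077, plus strand: gccacggtccgTTCTAGAACCTTCCGGAAg
Hspd1, chr1:55088058-55088087, minus strand: cgcgcggggccTTCCGGAAGGTTCTAGAAc
Hsph1, chr5:149636351-149636380, minus strand: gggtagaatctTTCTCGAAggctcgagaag
Dnaja1, chr4:40722333-40722362, plus strand: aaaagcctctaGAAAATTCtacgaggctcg
Hspa1b, chr17:34959324-34959353, minus strand: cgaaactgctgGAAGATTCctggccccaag
Hspa1a, chr17:34972157-34972406, minus strand, all 250 bases before the start: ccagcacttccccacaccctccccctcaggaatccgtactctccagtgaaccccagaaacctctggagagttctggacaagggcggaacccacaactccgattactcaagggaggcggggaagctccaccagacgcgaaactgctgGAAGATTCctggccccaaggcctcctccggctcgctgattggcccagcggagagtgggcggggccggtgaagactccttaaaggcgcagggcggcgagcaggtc
Hspd1 and Hspe1 are neighbours that are read in opposite directions, and the capitals of their 2 lines are the same bases of chromosome 1 on its 2 strands. Hspa1a and Hspa1b carry the same matched stretch, and their 250 bases before the start differ at 3 positions.

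The arrays fell into 2 sets by the spread of their values, and this governs every comparison with fMLP. Set 1 holds unstimulated replicates 1 and 2 of both genotypes (interquartile range 1.64 to 1.68 on the log2 scale), and set 2 holds unstimulated replicate 3 of both genotypes and all 4 fMLP arrays (2.47 to 2.59). Over all probe sets, arrays of set 1 correlated with each other at 0.977 to 0.988, those of set 2 at 0.935 to 0.996, and arrays of different sets at 0.750 to 0.813. The set was therefore a term of the fit, and the averaged fMLP difference is then that of 4 fMLP arrays against the 2 unstimulated arrays of set 2. Lcn2 itself was at 8.42 and 9.60 in knockout cells after fMLP, against 14.13 and 14.16 in wild type cells after fMLP, and at 8.09 to 9.20 in unstimulated knockout cells, against 13.88 to 14.02 in unstimulated wild type cells, as the genotype labels have it. All 13 neutrophil markers lay above the filter level of 8.18, the median of all values, on every array. Their mean was lower on all 4 fMLP arrays, at 12.83 to 13.48, than on the unstimulated set 2 arrays, at 13.53 and 13.54. One array, fMLP knockout replicate 2, stood apart: its mean over 14 neuron markers was 10.6, against 7.45 to 7.54 on the other 3 fMLP arrays, and Snap25 was at 13.43, against 7.36 to 7.77 there. The fMLP differences of the members and the counts of the lists are therefore given with and without it. The 4 fMLP arrays had Xist at 9.83 to 11.12 and the Y-linked Eif2s3y at 5.36 to 6.48, while the 2 unstimulated arrays of set 2, which went against the label female, had Xist at 6.94 and 6.88 and Eif2s3y at 9.59 and 9.83. Markers of other cells differed too. The mean over 6 monocyte markers was 8.30 to 9.17 after fMLP, against 10.1 and 10.6 on those 2 arrays, and that over 7 eosinophil, basophil and mast cell markers was 7.63 to 8.28, against 9.92 and 10.0. In the fit with the array set, 3 of 6 and 5 of 5 tested markers of these lists were called lower after fMLP, where 0.326% of all tested probe sets were called in either direction. The mean over 7 T and NK cell markers was higher on all 4 fMLP arrays, at 7.88 to 8.71, against 7.83 and 7.67. That over 5 B cell markers was 10.7 to 11.9, against 11.2 and 10.8, and that over 3 erythroid markers 9.23 to 10.3, against 9.62 on both, and in each the fMLP arrays other than knockout replicate 2 lay above. None of the tested markers of these 3 lists was called, while 3 of 4, 4 of 5 and 1 of 3 were called higher without that replicate, where 9.47% of all tested were. Their part in the heat shock values was not tested. With the 2 unstimulated arrays of set 2 as the only ones comparable to the fMLP arrays, the sex of the mice, the cell makeup and fMLP with its incubation cannot be told apart. In such bulk samples, fewer cells of a type and less RNA per cell cannot be told apart either.

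**Figure D1:**
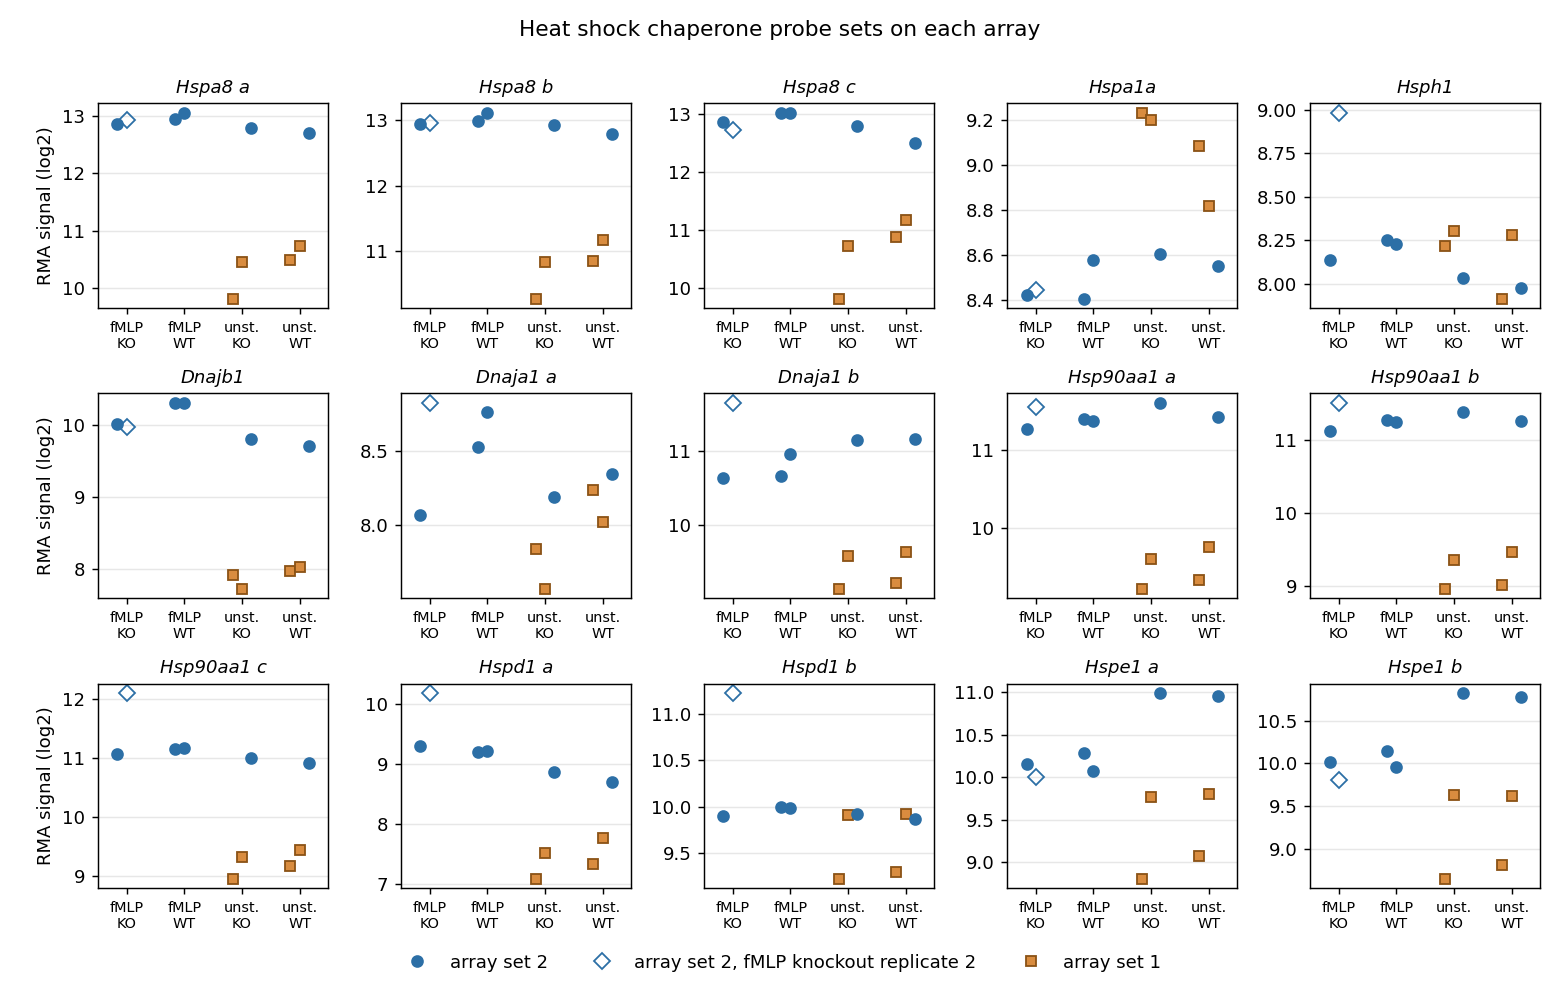
RMA signal (log2) of each of the 15 single-gene heat shock probe sets on each array, with letters telling probe sets of 1 gene apart and a separate vertical scale in each panel. Blue points are array set 2, the open diamond is fMLP knockout replicate 2 and orange squares are array set 1. In most panels the unstimulated set 2 points lie near the fMLP points and far from the unstimulated set 1 points, and Hspa1a is highest on set 1.

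With the array set in the fit, no heat shock probe set differed after fMLP by more than the test's threshold, and their differences lay on both sides of 0. None of the 15 probe sets passed (adjusted p below 0.05 over 15342 tested probe sets), where 50 of all tested, 0.326%, did. All 15 had passed the filter on low signal, which asks for at least 2 arrays above 8.18. Their fMLP differences ran from -0.85 to 0.70 on the log2 scale with a median of 0.20, 9 above 0 and 6 below, beside a median of -0.024 over all tested probe sets. At an unadjusted p below 0.05 there were 4 of 15, namely Dnajb1, 1 probe set of Hspd1 and both of Hspe1, and over all tested 2265, where 767.1 would fall below it by chance. Of the 15, 6 lay higher on every fMLP array than on both unstimulated arrays of set 2 and 2 lay lower on every one, against 11.8% and 20.8% of all tested probe sets.

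The stress-inducible HSP70 genes showed small differences that did not pass. Hspa1a (probe set 10450369) had a signal of 8.42 and 8.44 in knockout and 8.40 and 8.57 in wild type cells after fMLP. On the unstimulated arrays it was 9.23, 9.20 and 8.60 in knockout and 9.08, 8.82 and 8.55 in wild type cells. Of its unstimulated set 2 values, that of knockout cells lay above all 4 fMLP values and that of wild type cells above 3 of them, and all 4 set 1 values lay higher. The difference after fMLP was -0.11 on the log2 scale (SE 0.11, adjusted p = 0.686), or 0.924-fold with a 95% interval of 0.770 to 1.11, and -0.12 (adjusted p = 0.583) without fMLP knockout replicate 2. The probe set shared by Hspa1a and Hspa1b (10450367) was at 9.53 and 10.03 in knockout and 9.38 and 9.49 in wild type cells after fMLP, against 9.62 in knockout and 9.51 in wild type cells on the unstimulated set 2 arrays. Its highest fMLP value was the array with the neuron signal. Among 16660 probe sets fitted with the several-gene ones kept, it differed by 0.04 (SE 0.14, adjusted p = 0.915).

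Hspa8, the constitutive HSP70, was named by 3 probe sets (10368025, 10528021 and 10584572, called a, b and c). For probe set b the signal was 12.93 and 12.95 in knockout and 12.98 and 13.11 in wild type cells after fMLP, against 10.28, 10.84 and 12.92 in unstimulated knockout and 10.86, 11.17 and 12.79 in unstimulated wild type cells. All 4 fMLP values lay above the 2 unstimulated set 2 values, though the lowest of them by little, and those 2 in turn lay far above set 1. The fMLP differences of the 3 probe sets were 0.20, 0.14 and 0.26 on the log2 scale, with adjusted p from 0.681 to 0.781, and 0.18, 0.13 and 0.29 without fMLP knockout replicate 2. Leaving out unstimulated wild type replicate 3 turned all 3 to -0.076, -0.15 and -0.27. Hspa8 and other genes of this kind have near-identical copies in the genome. The annotation does not tell which of several probe sets lies in the gene itself, so they are not independent readings, here or in the genes that follow. The 2 probe sets that Hspa8 shares with the small RNAs Snord14c and Snord14d differed by 0.15 each.

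Hsph1, the HSP110 exchange factor for HSP70 (probe set 10535904), was at 8.13 and 8.99 in knockout and 8.25 and 8.23 in wild type cells after fMLP. Unstimulated cells had 8.22, 8.30 and 8.03 in knockout and 7.91, 8.28 and 7.97 in wild type. Both unstimulated set 2 values and that of fMLP knockout replicate 1 lay below the filter level of 8.18, so the signal was low. The array with the neuron signal was the highest, and the other 3 fMLP values lay within the range of the unstimulated ones though above both of set 2. The difference was 0.40 (SE 0.22, adjusted p = 0.445), and 0.18 (adjusted p = 0.388) without fMLP knockout replicate 2.

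Dnajb1, the stress-inducible J-domain partner of HSP70 (probe set 10573198), came nearest to a call in the higher direction. It stood at 10.02 and 9.98 in knockout and 10.31 and 10.31 in wild type cells after fMLP, against 7.92, 7.73 and 9.80 in unstimulated knockout and 7.97, 8.03 and 9.70 in unstimulated wild type cells. Both wild type fMLP values were the highest, and all 4 fMLP values lay above the 2 unstimulated set 2 values, which lay well above set 1. The difference was 0.40 (SE 0.11, adjusted p = 0.148), or 1.32-fold with a 95% interval of 1.11 to 1.56. Without fMLP knockout replicate 2 it rose, by 0.41 (SE 0.11, adjusted p = 0.0414), the only 1 of the 15 to pass there, where 9.47% of all tested probe sets passed. In that fit its wild type difference was also called, at 0.51 (adjusted p = 0.0462), where 4.63% of all tested were.

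Dnaja1, another J-domain partner, was named by 2 probe sets that did not move alike (10503995 and 10521587, called a and b). Probe set a had 8.07 and 8.82 in knockout and 8.53 and 8.76 in wild type cells after fMLP, against 8.19 in knockout and 8.34 in wild type cells on the unstimulated set 2 arrays. Probe set b had 10.64 and 11.65 in knockout and 10.66 and 10.96 in wild type cells after fMLP, against 11.14 and 11.16 on those arrays. For b the array with the neuron signal was the highest and the other 3 fMLP values were the lowest of set 2, while for a the groups overlapped. The differences were 0.28 (adjusted p = 0.585; 0.091 without fMLP knockout replicate 2) for a and -0.17 (adjusted p = 0.806) for b, which was -0.43 (adjusted p = 0.148) without that replicate. A probe set shared by Dnaja1 and Mir207 differed by 0.00 (adjusted p = 0.995), with 11.17 to 11.36 on the fMLP arrays.

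Hsp90aa1, the inducible cytosolic HSP90, was named by 3 probe sets (10378848, 10402615 and 10490946, called a, b and c). Probe set a had 11.26 and 11.54 in knockout and 11.39 and 11.36 in wild type cells after fMLP, against 9.23, 9.61 and 11.60 in unstimulated knockout and 9.35, 9.76 and 11.41 in unstimulated wild type cells. Of the fMLP values, 3 lay below both unstimulated set 2 values and that of the array with the neuron signal lay between them, and set 1 lay far below. Probe sets a and b differed by -0.12 and -0.031 (adjusted p = 0.786 and 0.950), and by -0.18 and -0.13 without fMLP knockout replicate 2. Probe set c differed by 0.43 (adjusted p = 0.495), with 12.11 on fMLP knockout replicate 2 against 11.08 to 11.18 on the other fMLP arrays, and by 0.17 without that replicate.

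Of all members, both probe sets of Hspe1 and probe set a of Hspd1, the mitochondrial pair, lay furthest out, on opposite sides of 0. Hspe1, the lid of the folding ring (probe sets 10346303 and 10455588, a and b), had on probe set a 10.15 and 10.01 in knockout and 10.28 and 10.08 in wild type cells after fMLP. Unstimulated knockout cells had 8.80, 9.77 and 11.00, and unstimulated wild type cells had 9.07, 9.81 and 10.96. All 4 fMLP values lay between the 4 lower values of set 1 and the 2 higher unstimulated values of set 2. Against set 2 the differences were -0.85 (SE 0.28, adjusted p = 0.218) for a, or 0.556-fold with a 95% interval of 0.355 to 0.873, and -0.82 (SE 0.29, adjusted p = 0.245) for b. Without fMLP knockout replicate 2 they were -0.81 (adjusted p = 0.103) and -0.76 (adjusted p = 0.130). Without the array set as a term they were 0.23 and 0.26.

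Hspd1, the ring itself (probe sets 10354732 and 10375240, a and b), had on probe set a 9.30 and 10.19 in knockout and 9.21 and 9.23 in wild type cells after fMLP. The unstimulated cells had 7.09, 7.52 and 8.87 in knockout and 7.34, 7.77 and 8.70 in wild type. All fMLP values lay above all unstimulated values, with the array of the neuron signal on top. The difference of probe set a was 0.70 (SE 0.26, adjusted p = 0.258), or 1.62-fold with a 95% interval of 1.07 to 2.44, and 0.47 (adjusted p = 0.120) without fMLP knockout replicate 2. Probe set b differed by 0.38 (adjusted p = 0.673) with the replicate and by 0.05 without it. Hspd1 and Hspe1 share the matched promoter bases printed above, and the fMLP differences of Hspd1 a and Hspe1 lay in opposite directions, none of them called.

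**Figure D2:**
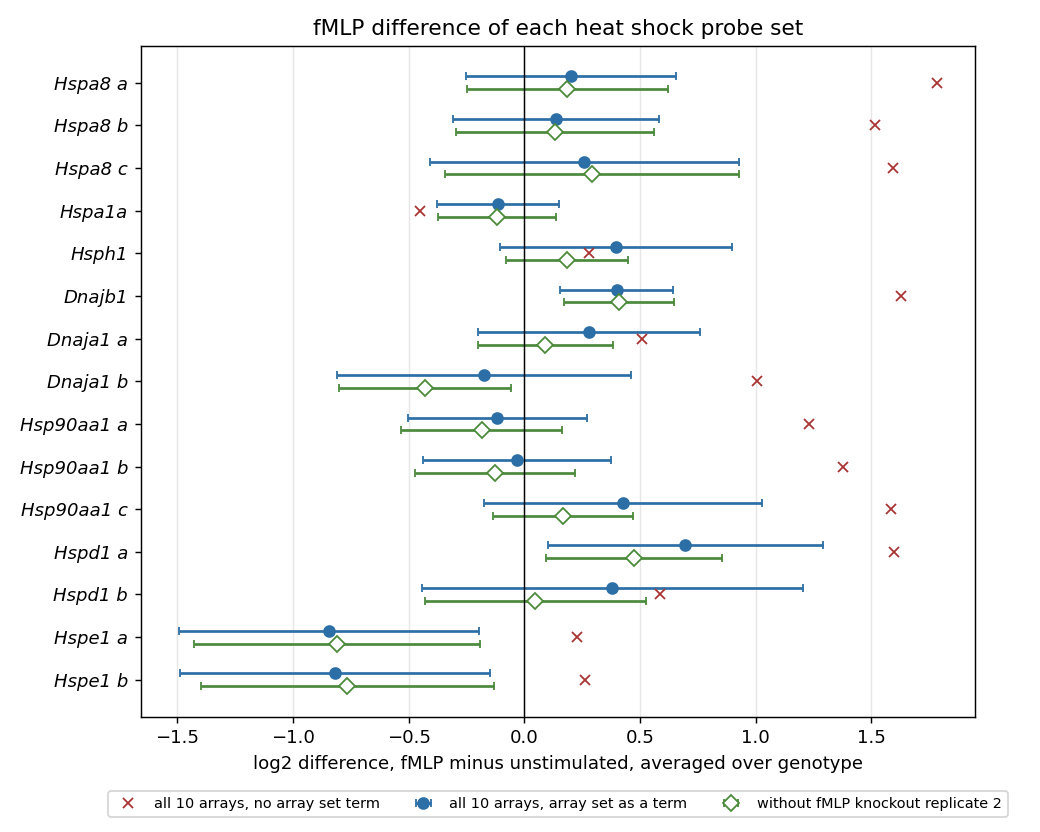
Difference on the log2 scale, fMLP minus unstimulated, averaged over genotype, for each of the 15 probe sets. Filled points with 95% intervals are the fit with array set as a term, open diamonds with intervals the same without fMLP knockout replicate 2, and crosses the estimate with no array set term. The crosses lie to the right of the points for 13 of the 15 probe sets; with the term the values run from -0.85 for Hspe1 a to 0.70 for Hspd1 a.

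Taking out the array set term moved the median of the members further than leaving out any single array did, which gave -0.076 to 0.41. Without the term 14 of the 15 probe sets lay above 0 after fMLP and 1, Hspa1a, below, with a median of 1.23 on the log2 scale, though none was called (0.0587% of all tested probe sets were). The unstimulated arrays alone also differed between the sets, by other amounts for single members. Set 2 exceeded set 1 by a median of 1.74 over the 15, from -0.50 for Hspa1a to 2.37 for Hspa8 a, with 1.84 for Dnajb1, 1.74 to 2.11 for Hsp90aa1 and 1.61 and 1.62 for Hspe1, while the fMLP differences of Hspe1 without the term were 0.23 and 0.26. Hsph1 was at -0.18 between the sets and at 0.28 after fMLP without the term. In unstimulated cells 11 of the 15 were above on both arrays of set 2 and 1, Hspa1a, below, while 48.5% and 42.4% of all tested probe sets were. Over all tested probe sets the median was 0.13, with quartiles of -0.67 and 1.23. Over the 5114 with the highest signal on the unstimulated arrays of set 2, which that choice makes high, it was 1.52.

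**Figure D3:**
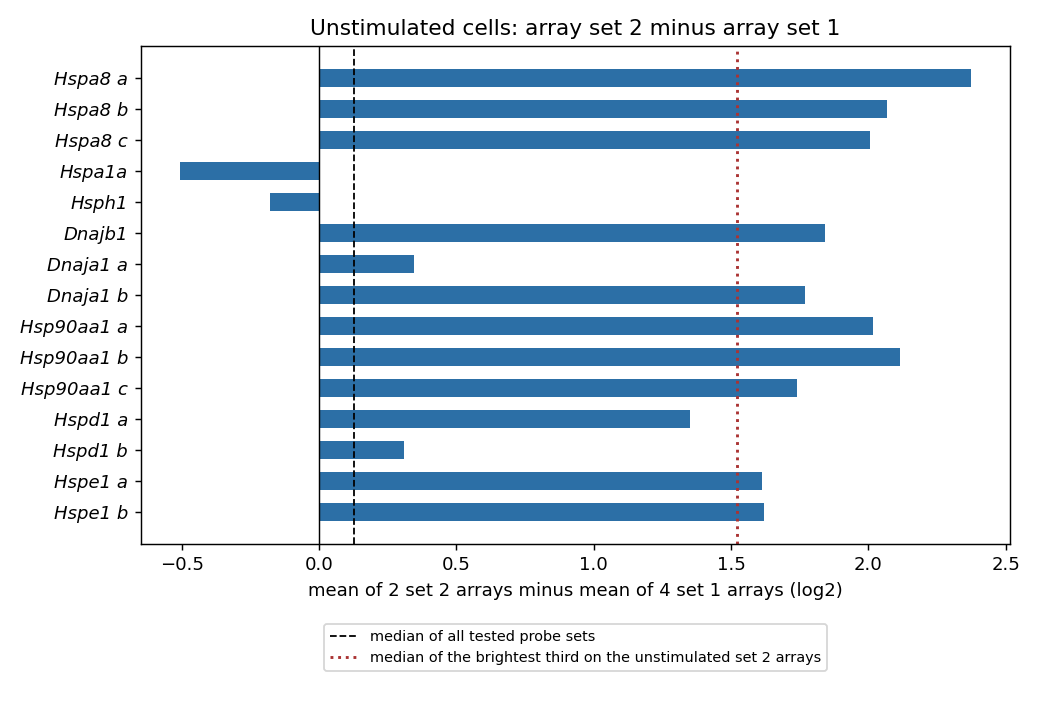
Bars give the mean of the 2 unstimulated set 2 arrays minus the mean of the 4 unstimulated set 1 arrays (log2) for each heat shock probe set. The dashed line is the median of all tested probe sets, 0.13, and the dotted line that of the 5114 brightest on set 2, 1.52. Hspa8 a is highest at 2.37, while Hspa1a and Hsph1 lie below 0.

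The array with the neuron signal moved some members and not others. Relative to the mean of the other 3 fMLP arrays, fMLP knockout replicate 2 lay 1.27 higher for Hspd1 b, 0.97 for Hsp90aa1 c, 0.94 for Hspd1 a, 0.90 for Dnaja1 b and 0.78 for Hsph1. It lay 0.24 lower for Dnajb1 and 0.24 lower for Hspe1 b, and the median over the 15 was 0.20, beside -0.12 over all tested probe sets. Without it the median fMLP difference of the 15 was 0.091, and 7 lay above and 4 below both unstimulated set 2 arrays on all 3 fMLP arrays, against 26.8% and 29.2% of all tested. When fMLP knockout replicate 1 was left out instead, so that this array alone stood for knockout cells after fMLP, 8 of the 15 were called, 6 higher and 2 lower, where 28.4% of all tested were. Those called were Hspd1 a and b, Hsp90aa1 c, Dnaja1 a, Hsph1 and Dnajb1 as higher and Hspe1 a and b as lower.

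Genotype made no called difference to any heat shock probe set. In unstimulated cells 0 of 15 passed, where 0.00652% of all tested did, a single probe set that is Lcn2. An unadjusted p below 0.05 in limma was found for 0 of 15 there, and for 77 of the 15342 tested. The knockout minus wild type values ran from -0.41 for Hspa8 c to 0.19 for Hspa1a, with a median of -0.082, 2 above 0 and 13 below. Of all tested probe sets 53.7% lay above 0. Probe sets of 1 gene are not independent readings, so such counts are not counts of genes. After fMLP 0 of 15 passed, where 0.00652% did. The values ran from -0.31 for Dnajb1 (SE 0.12, adjusted p = 0.422) to 0.57 for Hspd1 b, with 7 above 0 and 8 below. Of all tested, 42.5% lay above 0, and 48.4% without fMLP knockout replicate 2. Dnajb1 was the only 1 of the 15 with an unadjusted p below 0.05 in limma there, where 1283 of the 15342 tested had one. Both Dnajb1 knockout values lay below both wild type values, and how many of all tested did so was not counted. Without fMLP knockout replicate 2, which leaves 1 knockout array taken to vary like the other groups, Hspd1 b was at -0.088 and Dnajb1 at -0.29. The values then ran from -0.57 for Dnaja1 a (SE 0.17) to 0.079 for Hspd1 a, with 1 above 0 and 14 below and 0 called, where 0.00652% of all tested were. The knockout response to fMLP minus the wild type response ran from -0.25 for Hspa1a to 0.64 for Hspd1 a. None of the 15 passed, nor did any of all tested (0%, with 276 at an unadjusted p below 0.05 in limma). Of the 15, 11 lay above 0 and 4 below, where 38.8% of all tested lay above 0 (48.9% without fMLP knockout replicate 2). Without fMLP knockout replicate 2 the values ran from -0.26 for Hspa1a to 0.25 for Hspa8 c, with 0.19 for Hspd1 a, 5 above 0 and 10 below, and again none was called (0% of all tested, with 133 at an unadjusted p below 0.05). Within wild type cells the fMLP difference had a median of 0.087 over the 15 and within knockout cells of 0.28, and 0 of 15 passed in either, where 0.0717% and 0.0521% did. The knockout median was 0.0094 without fMLP knockout replicate 2, and 0 of 15 passed there, where 2.08% did, while the wild type median stayed at 0.087.

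Other genes of protein folding, from lists drawn up from general knowledge, were set beside the members. Of 15 probe sets of other heat-inducible genes 0 passed, with a median of 0.10, and 2 rose without fMLP knockout replicate 2, with a median of 0.0062, where 9.47% of all tested passed. With all arrays their largest difference was 0.54 for Chordc1 (adjusted p = 0.116), a co-chaperone of HSP90. Chordc1 had 9.67 and 9.32 in knockout and 9.88 and 10.04 in wild type cells after fMLP, against 9.17 and 9.21 on the unstimulated set 2 arrays. All 4 fMLP values lay above those 2, and without fMLP knockout replicate 2 it rose, by 0.62 (adjusted p = 0.00502). The other to rise there was Hmox1, an enzyme of heme breakdown, by 0.57 (adjusted p = 0.0174), named after its values were seen. Bag3, an HSP70 exchange factor that heat induces, differed by 0.35 (adjusted p = 0.265), while Cacybp differed by -0.39 (adjusted p = 0.403) and Dnaja4 by 0.23 (adjusted p = 0.410). None of 3 tested probe sets of heat shock factors and their regulators passed, with Hsbp1, which binds heat shock factor 1, at 0.23 and Hsf4 at 0.04. That list also held Hsf1 and Hsf2, which had no tested probe set, so nothing is said of them. Hsf4 lay below the filter level of 8.18 on every set 2 array, at 7.73 to 7.92, and above it only on set 1. Of the other HSP70 and HSP110 genes, 0 of 7 passed, with Hspa13 at -0.15 and Hspa4 at 0.079. Neither list held a call without fMLP knockout replicate 2.

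With all arrays, co-chaperones and other J-domain genes gave 1 call each, where 0.326% of all tested probe sets were called. Without fMLP knockout replicate 2 that share was 9.47%. Unc45a, a partner of HSP90, rose by 0.82 (adjusted p = 0.0267), with 10.05 and 9.89 in knockout and 10.01 and 9.99 in wild type cells after fMLP, against 9.17 and 9.15 on the unstimulated set 2 arrays and 9.09 to 9.33 on set 1. It was the only 1 of 19 co-chaperone probe sets that passed, and their median was 0.02, with Hspbp1 at 0.59 (adjusted p = 0.103). On the arrays other than fMLP knockout replicate 2, 3 of the 19 rose, namely Unc45a, Hspbp1 by 0.49 (adjusted p = 0.0132) and Tomm34 by 0.44 (adjusted p = 0.0339). Of 42 other J-domain probe sets 1 passed, a lower one of Dnajc13, an endosomal protein, at -0.94 (adjusted p = 0.0318). The array holds 14 probe sets of Dnajc13 among the 42, and all 14 lay below 0, from -0.29 to -0.96. The median of the 42 was -0.13, but of the 28 probe sets of other genes 16 lay above 0 and 12 below, with a median of 0.041. Without fMLP knockout replicate 2, 8 of the 14 for Dnajc13 fell and 1 other rose, Dnajc15 by 0.48 (adjusted p = 0.0291), named after its values were seen. Without the array set term all 14 turned to between 0.31 and 1.96.

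The lists of small heat shock proteins, chaperonins, mitochondrial and endoplasmic reticulum chaperones and cold-inducible genes held no call with all arrays. Of all tested probe sets 0.326% were called there, and 9.47% without fMLP knockout replicate 2. The 6 tested small heat shock protein probe sets had a median of 0.02 (Hspb6 at 0.28), the 13 of the cytosolic chaperonin and prefoldin 0.01 (Vbp1, a prefoldin subunit, at -1.23 with adjusted p = 0.119) and the 10 of mitochondrial chaperones and proteases 0.05. The 16 of endoplasmic reticulum chaperones had a median of -0.15, with 2 above 0 and 14 below, Dnajb9 at 0.66 and Pdia3 at -0.34. Dnajc3 was named by 2 of the 16, both at the same -0.21, so 1 reading counts 2 times among those below. Over all tested probe sets 45.5% lay above 0. In the fit without fMLP knockout replicate 2, Vbp1 fell by 0.96 (adjusted p = 0.0071) and Pdia3 by 0.42 (adjusted p = 0.0461), while Cct2, of the chaperonin, rose by 0.42 (adjusted p = 0.0396) and Pfdn5, of prefoldin, by 0.69 (adjusted p = 0.0386), the last 2 named after their values were seen. These 4 were the only calls of these lists there. Among genes that cold induces, Rbm3 differed by -0.17, -0.14 and -0.07 on its 3 probe sets and Cirbp by 0.37 (adjusted p = 0.227). Without fMLP knockout replicate 2 the values were -0.028, -0.0053 and 0.091 for Rbm3, in the same order, and 0.30 for Cirbp. Cirbp had 9.59 and 9.87 in knockout and 9.61 and 9.40 in wild type cells after fMLP, against 9.30 and 9.20 on the unstimulated set 2 arrays. The Cirbp values did not overlap, and 11.8% of all tested probe sets lay above in the same way.

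Immediate early genes, which answer cell handling as well as receptor signals within minutes, held 3 calls. The share called over all tested probe sets was 0.326% with all arrays and 9.47% without fMLP knockout replicate 2. Of 15 probe sets 3 rose and none fell, with a median of 0.58, 13 above 0 and 2 below, and 9 rose without fMLP knockout replicate 2. Nr4a1, a nuclear receptor, rose by 2.00 (adjusted p = 0.0146), with 11.64 and 11.24 in knockout and 11.56 and 12.33 in wild type cells after fMLP, against 9.64 and 9.74 on the unstimulated set 2 arrays. The transcription factor Atf3 rose by 2.32 (adjusted p = 0.0213) and Fosb by 2.01 (adjusted p = 0.0232), while Jun at 1.06 did not pass (adjusted p = 0.0963). All 3 called genes were also called without the array set term, at 2.15 for Nr4a1, 2.20 for Atf3 and 1.92 for Fosb. Whether the unstimulated cells were also kept warm is not stated, so the parts of handling, warming and the peptide were not tested.

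**Figure D4:**
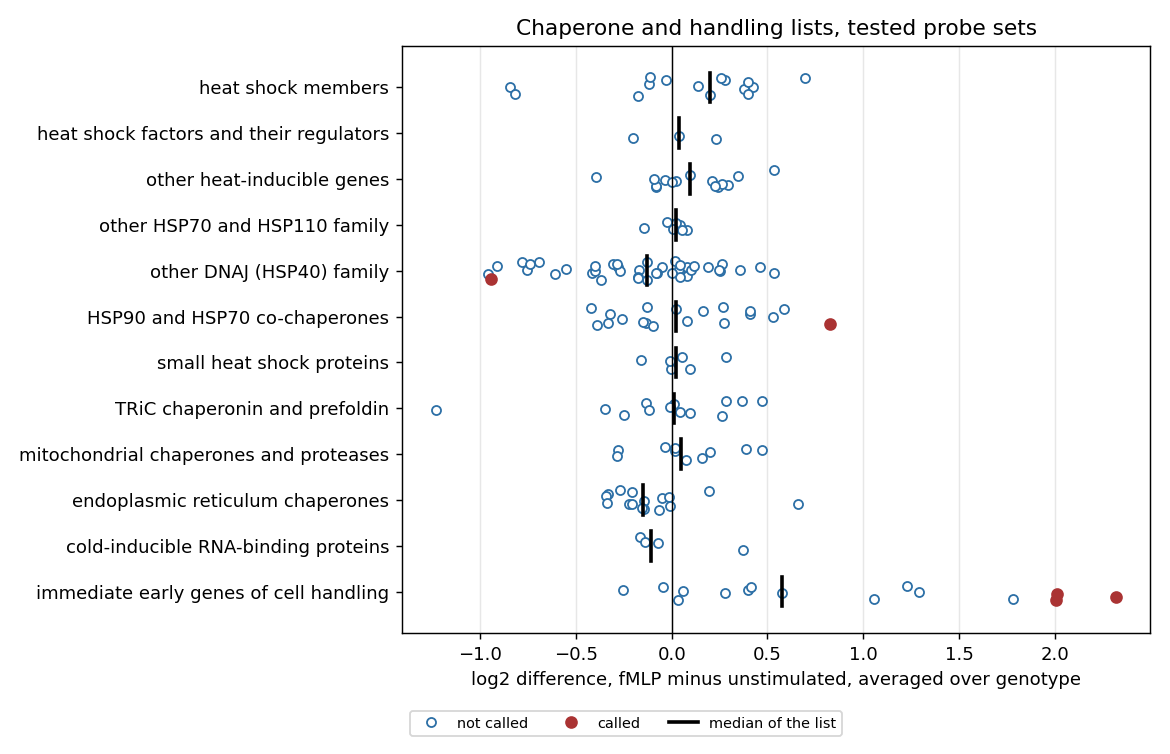
Each point is a tested probe set, placed by its log2 difference, fMLP minus unstimulated and averaged over genotype, with filled points called at an adjusted p below 0.05 and bars at the list medians. The heat shock members scatter on both sides of 0 with a median of 0.20, and the immediate early genes reach 2.32.

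The members were compared among themselves after the mean of each array set was taken off, over the 9 arrays without fMLP knockout replicate 2. The 2 Hspe1 probe sets had a Pearson correlation of 0.997 and the 3 of Hspa8 of 0.978 to 0.991. For Hsp90aa1 a and b it was 0.979, but for Hsp90aa1 c only 0.608 with a and 0.684 with b. It was 0.682 for Hspd1 and -0.129 for Dnaja1. Between different members the highest value was 0.929 (Hspa8 a and Hsp90aa1 c) and the lowest -0.700 (Hspa1a and Hspd1 a). Hspa1a also ran against Hspa8 (-0.66 to -0.69) and Dnajb1 against Hspe1 a (-0.64). The probe sets of other genes most like them, by the same measure, were Nae1 (0.995) and Ankrd17 (0.991) for Hspe1 a, Slc25a3 (0.993) and Zfp51 (0.978) for Hspa8 b, Strn4 (0.988) and Aldh3b3 (0.978) for Dnajb1, and Snap23 (0.989) and Snx3 (0.985) for Hspd1 b. For Hspa1a they were Eipr1 (0.980) and Tmem88b (0.978), for Hsph1 Cdyl2 (0.969) and Usp12 (0.966), for Dnaja1 b Senp6 (0.983) and Klrb1f (0.980), and for Hsp90aa1 a Srrm2 (0.971) and Ap3m1 (0.970). These values are descriptions over 9 points that share their groups and array sets. The genes most like each member were picked as the highest among all tested probe sets of other genes, and that choice makes their values high.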

How the data were processed

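The authors deposited RMA signals, taken here as log2, made in Affymetrix Expression Console per the submitters' processing notes. The log base is not stated and was read off the range of the values. Probe sets were named from the platform annotation: of 35556, 21789 name 1 gene, 1621 several and 12146 none, and 21698 symbols matched RefSeq. Probe sets naming 1 gene with at least 2 arrays above 8.18 (15342, of 14071 genes) were fitted with limma 3.58.1 in R 4.3.3, on all 10 arrays, with a coefficient per group and the array set (interquartile range below or above 2), leaving 5 residual degrees of freedom. Tests were two-sided, adjusted by Benjamini-Hochberg over all tested and called below 0.05, for 6 comparisons. Arrays have no read depth; their number limits precision. The fit was tested on simulated data. Alternatives were another normalization, filter, variance model and block, array weights and leaving out each array. Unstimulated arrays of the same number deviated together from their group means (r = 0.950, 0.932 and 0.988 for replicates 1, 2 and 3). For the fMLP arrays r was 0.0666 for both numbers, as 2 arrays deviate from their mean by equal and opposite amounts. The knockout deviation there is set by the array with the neuron signal, so this value cannot tell whether the number pairs arrays. The array set was not taken off first. In both genotypes unstimulated replicates 1 and 2 lie in set 1 and replicate 3 in set 2. The unstimulated values therefore carry the set difference and cannot tell whether the number pairs arrays. Members, lists, array set term and naming rule (every member, the 4 probe sets of smallest p per list and every called one, the 2 genes most like each member) were chosen with earlier results of these data known.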

Additional observations from a re-analysis of the deposited data

How the results depend on the processing

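The number of tested probe sets called for fMLP averaged over genotype, 50, and the member median, 0.20, depended on the array set and on single arrays. Without the array set term 9 were called and the median was 1.23; limma called 0 in wild type (1159 at an unadjusted p below 0.05) and 1 in knockout cells; Hspe1 a and b turned to 0.23 and 0.26, Hsp90aa1 a and b to 1.23 and 1.38 and Dnaja1 b to 1.01. With the replicate block in place of the set, fMLP lies across sets: 12838 were called, 14 of them members, with a median of 1.90, 12411 in wild type, 11396 in knockout and 0 for knockout after fMLP (1377 at an unadjusted p below 0.05), and those 5 probe sets turned to 0.77, 0.80, 1.90, 2.08 and 1.59. The block changed no call between unstimulated genotypes. On set 2 alone limma called 0 in the 5 comparisons other than the interaction (1000, 336, 520, 4 and 75 at an unadjusted p below 0.05). Chosen after the data were seen, set 2 without fMLP knockout replicate 2 gave 3417, with 6 members (Hspe1 a and b and Dnaja1 b lower; Hspd1 a, Dnajb1 and Hspa8 c higher), 1625 in wild type, 1014 in knockout and 3 for knockout after fMLP, and keeping probe sets of several genes gave 96, 43 in wild type and 47 in knockout. Array weights gave 899, 4173 in wild type with 6 members, 5 in knockout and 3 for unstimulated knockout. A variance trend gave 83 and 18 in knockout, quantile normalization 4 in knockout and 0.053 for Hsp90aa1 b, and a stricter filter 16 in knockout. Leaving out each array gave 0 to 4352 called, 0 to 711 in wild type, 0 to 5828 in knockout, 0 to 1 and 0 to 6848 for the genotypes without and with fMLP, 0 to 5163 for the interaction, 0 to 8 members called and a median of -0.076 to 0.41. The 8 came without fMLP knockout replicate 1, which leaves the array with the neuron signal alone in its group: Hspe1 a and b lower; Hspd1 a and b, Hsp90aa1 c, Dnaja1 a, Hsph1 and Dnajb1 higher; Hsp90aa1 b turned to 0.065 and Dnaja1 b to 0.079 (-0.43 without fMLP knockout replicate 2). Without unstimulated wild type replicate 3 Hspa8 a, b and c turned to -0.076, -0.15 and -0.27 (0.48, 0.43 and 0.78 without unstimulated knockout replicate 3). Without unstimulated knockout replicate 3 Hsp90aa1 a and b turned to 0.041 and 0.070 (Hsp90aa1 b was at -0.13 without unstimulated wild type replicate 3). In both cases limma called 0 for fMLP averaged over genotype (789 and 801 at an unadjusted p below 0.05). The cause was not tested. Another background correction was not run, since the deposited values are already summarised.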
